A study of Mus musculus with 12 samples.

Results

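Fibroblasts on the way to pluripotency split into cells that carry on and cells that stall, and the question here is how far apart the sorted populations of these kinds stood on day 6 compared with day 3. The measure is a difference of gaps: the log2 fold change of Eff against Ineff cells on day 6, minus the same fold change on day 3. A positive value means that a gene moved towards Eff cells between the days, relative to Ineff cells. It was computed for 14695 genes from the 8 sorted libraries of a series of 12, with 2 libraries in each of 4 groups.

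All 4 groups came from mouse cells (129SV/Jae/C57BL6J) reprogrammed in ES medium with dox and AA, as the labels write these additions, and all were sorted positive for SSEA1, a surface carbohydrate of pluripotent cells. The d3_Ineff cells of day 3 were CD73- Sca1+ and the d3_Eff cells CD73+ Sca1-. The d6_Ineff cells of day 6 were EpCAM- Sca1+ and the d6_Eff cells EpCAM+ Sca1-. Eff and Ineff are the labels' names. The remaining groups of the series were the starting mouse embryonic fibroblasts (MEF) and induced pluripotent stem cells (iPSC). One gate marker was exchanged between the days, so the day and the gate cannot be told apart in the difference of gaps. The same holds for any rise or fall between the days within Eff or Ineff. The labels do not say whether the 2 libraries of a group came from separate cultures or animals, so p-values measure only the spread between these samples, which may be technical.

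During reprogramming, fibroblasts lose the matrix, contractile fibres and transcription factors of mesenchyme and take on the junctions, keratins and splicing factors of epithelium, a mesenchymal-to-epithelial transition. The pluripotency genes of the cell's own genome come on around or after that step. Cells that stall keep a mesenchymal programme and often slow their division.

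The 8 libraries held 16081124 to 22763548 gene counts. Reads outside genes made up 6.20% to 11.7% of uniquely placed reads in 7 of them and 24.15% in d6_Eff replicate 2, which also gave 1.34% of its gene counts to Lars2, a mitochondrial tRNA synthetase, against at most 0.421% in the other 7. With the share of reads outside genes as a covariate the difference of gaps had 1242 calls in place of 1237, and results that change when this library is left out are given with their values. Levels are CPM, counts scaled by TMM to a common library size, and compare samples for 1 gene, not genes with each other. Since these are bulk samples, fewer cells of a kind and less RNA per cell cannot be told apart.

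The gap was wider on day 6. Over all genes tested, the median absolute log2 fold change of Eff against Ineff was 0.262 on day 3 and 0.509 on day 6. The 2 libraries of a group differed by a median of 0.219 to 0.264 on log2 of CPM plus 0.5. That spread is 1 library against 1, while the gap lies between fitted means of 2, so the measures are not alike. A gap past 1 log2 unit was seen in 1953 genes (13.3%) on day 3 and in 3864 genes (26.3%) on day 6. Without d6_Eff replicate 2 the day 6 median was 0.512, and without d6_Eff replicate 1 it was 0.56. The day 3 median was 0.351 without d3_Eff replicate 1, 0.315 without d3_Ineff replicate 1 and 0.259 without d3_Eff replicate 2. With edgeR's quasi-likelihood test at a Benjamini-Hochberg adjusted p under 0.05, 562 genes (3.82% of those tested) were called on day 3 and 4478 (30.5%) on day 6. With the share of reads outside genes as a covariate these counts were 627 and 3754. The day 3 count was 220 without d3_Eff replicate 2, 251 without d3_Ineff replicate 2 and 298 without d3_Ineff replicate 1. The size has no test of its own: 2 libraries against 2 cannot give an exact permutation p below 0.333.

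**Figure D1:**
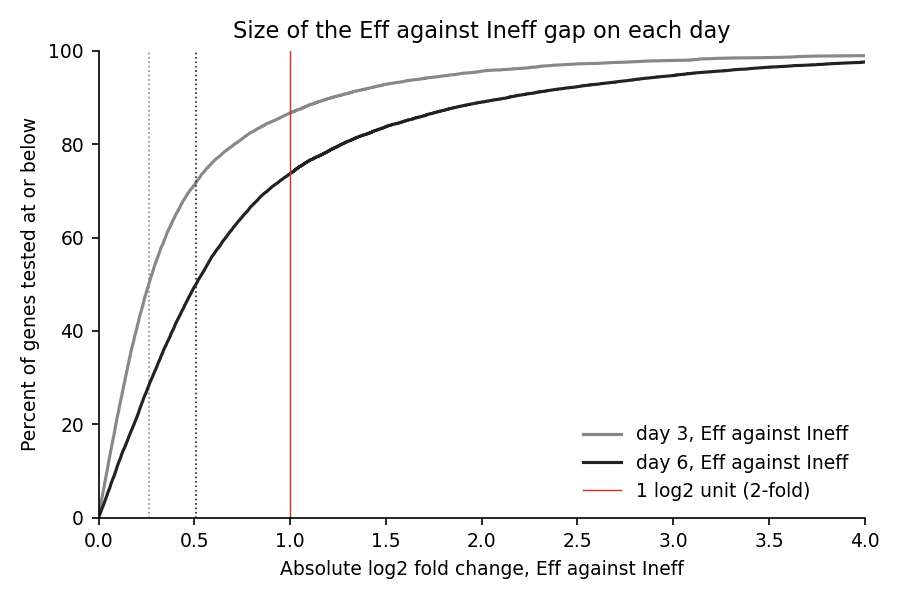
Cumulative percent of the 14695 genes tested (y axis) against the absolute log2 fold change of Eff against Ineff (x axis) on day 3 (grey) and day 6 (black). Dotted lines mark the medians of 0.262 and 0.509 and the red line marks 1 log2 unit. The axis ends at 4, past which lie 154 genes on day 3 and 355 on day 6, and the day 6 curve lies to the right.

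The difference itself was called for 1237 genes (8.42%), of which 272 (1.85%) moved towards Eff and 965 (6.57%) away from it. The count was 742 without d3_Ineff replicate 2, 752 without d6_Ineff replicate 2 and 225 with all 12 libraries in the fit. The positive calls were 150 without d3_Ineff replicate 2, 153 and 169 without d6_Eff replicate 2 and 1 and 160 without d6_Ineff replicate 1, and the negative ones 559 and 592 without d6_Ineff replicate 2 and d3_Ineff replicate 2.

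In 982 of the 1237 the gap opened, being called on day 6 and not on day 3, and in 153 it widened in the direction already called. It closed in 43 genes, and in 37 it crossed, being called in opposite directions on the 2 days. A single gene, Dmrtc2, chosen here after its values were seen, was called on both days with a smaller gap on day 6. The remaining 21 were called in neither gap. These classes rest on calls in both gaps and moved when 1 library was left out. Opened genes were 579, 634 and 653 without d6_Ineff, d3_Ineff and d6_Eff replicate 2, and widened ones 61 to 87 without any 1 of the day 3 libraries. Closed genes were 13 and 27 without d3_Ineff and d6_Ineff replicate 2. Crossed genes were 12 to 24 without any 1 of the day 3 libraries and 22 without d6_Ineff replicate 2, and Dmrtc2's class was empty without either d6_Eff library and held 4 genes without d3_Ineff replicate 1. Of the calls 22.0% were positive here, 27.9% with DESeq2's size factors in the same test, 27.6% with upper-quartile scaling, and 33.0% with DESeq2's own test.

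Day 3 differences did not all carry over. Of 371 genes lower in Eff on day 3 (2.52%), 335 were also called lower on day 6 and 4 were called higher. Of 191 genes higher in Eff on day 3 (1.3%), 95 were also called higher on day 6, 33 were called lower and 63 were not called. Across genes, which are not independent replicates, the 2 gaps correlated with Pearson r = 0.30, and they share no libraries.

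**Figure D2:**
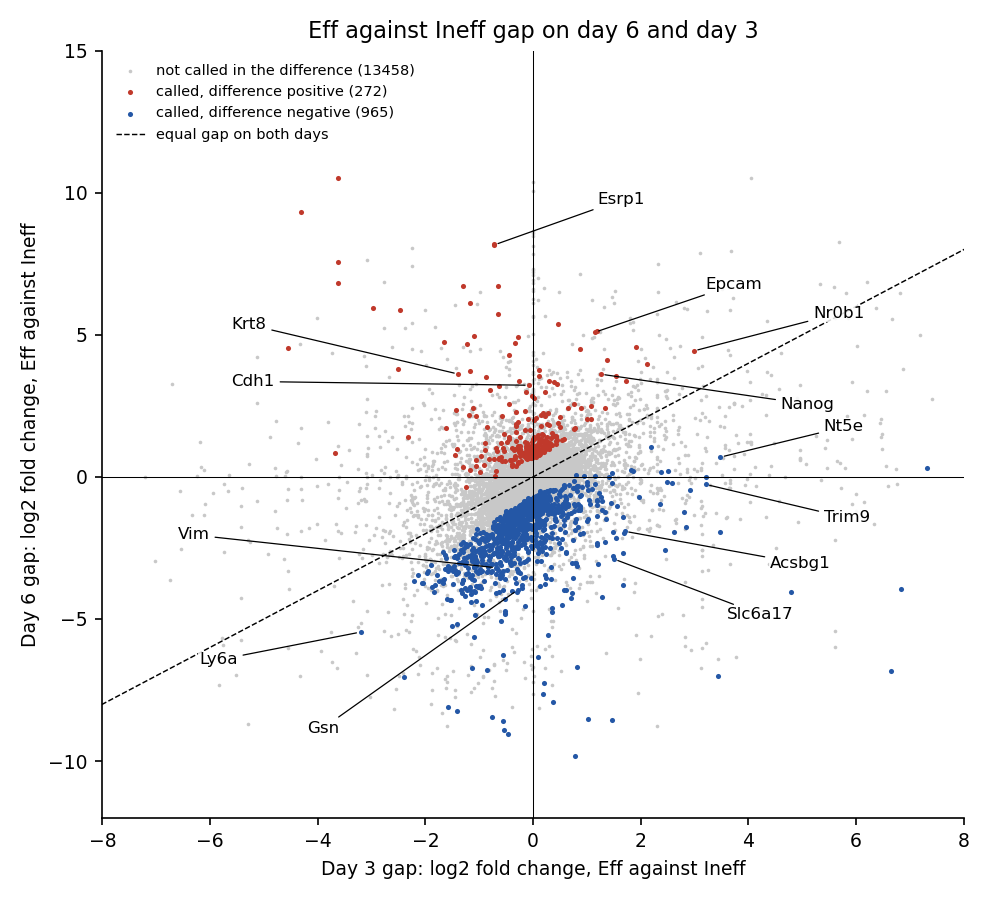
Log2 fold change of Eff against Ineff on day 6 (y axis) against that on day 3 (x axis), 1 point per gene tested. Of the called genes, 272 with a positive difference are red and 965 with a negative one blue; a gene on the dashed line has the same gap on both days. Cdh1 and Gsn sit near 0 on day 3 and far from it on day 6, Nt5e and Trim9 the reverse, and Acsbg1 and Krt8 lie on opposite sides of 0 on the 2 days.

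A gap can open because either population moved, and with TMM scaling the 2 directions differed in this respect. Among the 965 genes with a negative difference, 497 (51.5%) fell from day 3 to day 6 in Eff cells with no call in Ineff cells. Another 211 (21.9%) rose in Ineff with no call in Eff, 111 fell in Eff and rose in Ineff, and 85 fell in both. Among the 272 with a positive difference, 109 (40.1%) rose in Eff alone and 104 (38.2%) fell in Ineff alone, and 37 rose in both. Over all genes tested, 19.2% were called between the days in Eff (7.75% higher on day 6, 11.5% lower) and 16.3% in Ineff (9.39% higher, 6.88% lower). In Eff these were 1139 genes higher and 1685 lower, and with upper-quartile scaling 1356 and 1406. In Ineff they were 1380 higher and 1011 lower, and with upper-quartile scaling 1465 and 868. The split by population was made with TMM alone. The Eff count of 2824 was 1842 without d6_Eff replicate 2, and the Ineff count of 2391 was 1051 without d3_Ineff replicate 2, 1226 without d6_Ineff replicate 1 and 1291 without d6_Ineff replicate 2. These between-day tests use the same libraries as the difference and describe it, with no added support, and a missing call does not show that a gene stayed the same. They also compare populations sorted by different gates on the 2 days, so a rise or fall can follow from the gate.

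**Figure D3:**
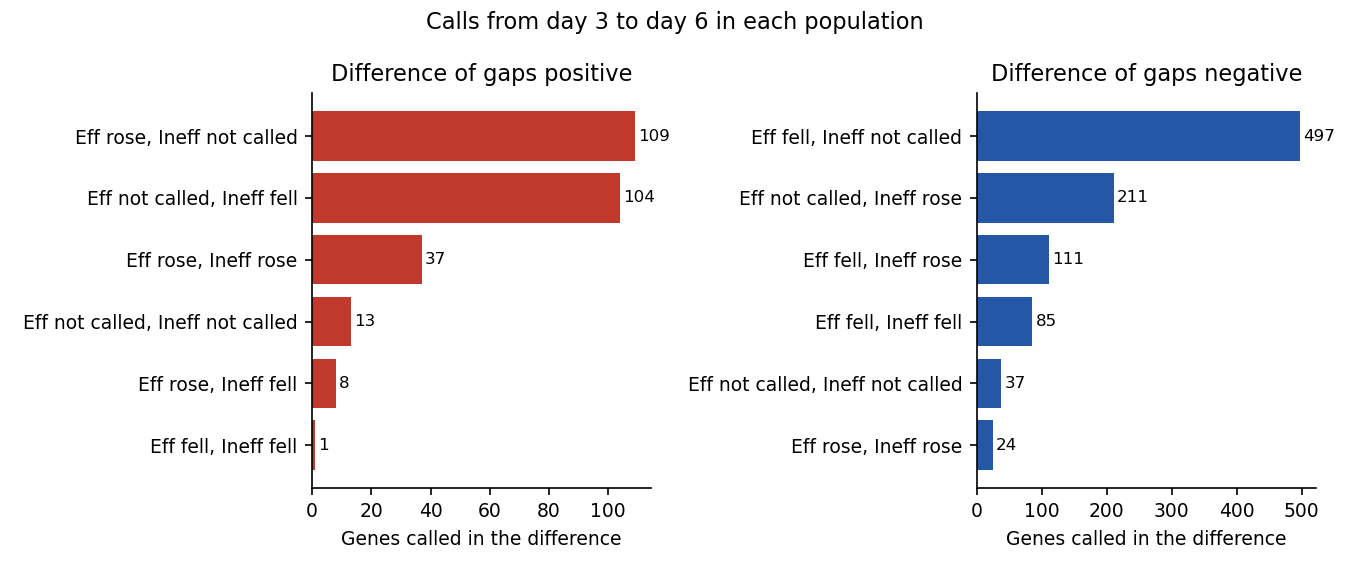
Number of called genes (x axis) by their calls from day 3 to day 6 in each population (y axis), for positive differences (left, 272 genes) and negative ones (right, 965 genes). A fall in Eff cells alone is the longest bar on the right with 497 genes, and on the left a rise in Eff (109) and a fall in Ineff (104) are close in number.

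Epithelial genes opened the gap upwards. Of 45 epithelial genes in the files 43 were tested, and 17 were called positive in the difference and 1 negative, with a median difference of 2.15 against -0.0479 over all genes tested. Of all genes tested, 1.85% were called positive and 6.57% negative. On day 3, 8 epithelial genes were called higher and 3 lower in Eff, and on day 6, 30 were higher and 3 lower. The 8 were 4 and 5 without d3_Eff and d3_Ineff replicate 2, and the 3 of day 6 were 1 without any 1 of the day 6 libraries, while the 17 were 14 to 20 over all fits without 1 library. From day 3 to day 6, 34 rose in Eff, but 19 also rose in Ineff and 2 fell there.

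Cdh1 (ENSMUSG00000000303), which encodes E-cadherin of adherens junctions, had 19.2 and 18.8 CPM in d3_Ineff and 21.0 and 15.1 in d3_Eff. On day 6 it had 45.4 and 44.6 CPM in d6_Ineff and 403 and 440 in d6_Eff. The day 3 groups overlapped and the day 6 groups were far apart, with a log2 difference of gaps of 3.30 ± 0.24 (SE, n = 2 per group; edgeR adjusted p = 9.86e-07). It also rose in Ineff cells, by 1.24 on the log2 scale.

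Epcam (ENSMUSG00000045394) stood at 5.56 and 5.29 CPM in d3_Ineff, 11.3 and 12.7 in d3_Eff, 29.0 and 29.2 in d6_Ineff and 968 and 1014 in d6_Eff. Its log2 difference was 3.94 ± 0.21 (SE; edgeR adjusted p = 9.13e-08). EpCAM was the gate on day 6 and not on day 3, so this difference can follow from the sort. The other epithelial genes were read under the same gates, and for them too day and gate cannot be told apart.

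Esrp1 (ENSMUSG00000040728), a splicing regulator of epithelial isoforms, was at 0.683 and 2.41 CPM in d3_Ineff, 1.07 and 0.759 in d3_Eff and 0.607 and 0.292 in d6_Ineff. In d6_Eff it reached 116 and 131 CPM, a log2 difference of 8.89 ± 0.65 (SE; edgeR adjusted p = 1.14e-06). No other group came near d6_Eff. Esrp1 was called lower on day 6 than on day 3 in Ineff cells. That call rests on 15 and 51 counts against 10 and 7, so mainly on d3_Ineff replicate 2. Ap1m2, a clathrin adaptor subunit of epithelial sorting, went from at most 1.295 CPM in the other 6 libraries to 121 and 136 in d6_Eff (log2 difference 7.38 ± 0.89, SE; edgeR adjusted p = 9.53e-05).

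The keratins of simple epithelium changed sides. Krt8 had 12.4 and 12.2 CPM in d3_Ineff and fewer, 3.36 and 6.13, in d3_Eff. On day 6 it had 16.0 and 17.9 in d6_Ineff and 190 and 229 in d6_Eff (log2 difference 5.01 ± 0.32, SE; edgeR adjusted p = 3.65e-07). Its partner Krt18 followed the same order, with 6.10 and 5.90, then 2.24 and 2.22, then 7.46 and 5.52, then 34.2 and 31.1 CPM. Both were called lower in Eff on day 3 and higher on day 6.

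Of the transcription factors of epithelium, Grhl2 and Ovol2 had called positive differences. Grhl2 rose from 1.21 and 0.705 CPM in d3_Eff to 54.1 and 63.2 in d6_Eff (log2 difference 2.69 ± 0.66, SE; edgeR adjusted p = 0.0178). It rose in Ineff cells too, so its difference is smaller than its rise in Eff. Ovol2 went from 5.96 and 6.89 to 28.3 and 38.3 CPM, and its Ineff level went from 5.10 and 4.72 to 3.21 and 3.38. Ehf, an ETS factor of epithelia, was the 1 gene of the epithelial list that edgeR called negative. Eff cells had more of it on day 3 (111 and 92.5 CPM against 47.7 and 47.4) and less on day 6 (103 and 85.2 against 116 and 140). Grhl2 and Ovol2 were chosen after their values were seen, and other epithelial factors are not given here.

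Among junction genes, Cldn6, a claudin of embryonic epithelium, had 126 and 122 CPM in d6_Eff against at most 2.76 in the other 6 libraries. Cldn4 already differed on day 3 and rose from 7.66 and 7.92 CPM in d3_Eff to 226 and 223 in d6_Eff, while Ineff went from 2.41 and 2.27 to 20.02 and 22.7. Crb3, a polarity protein, and Pkp3, a desmosome plaque protein, reached 20.4 and 22.9 CPM and 19.8 and 20.5 CPM in d6_Eff, with at most 2.42 in the other 6 libraries for either gene. The call of Crb3 is lost without d3_Ineff replicate 1 (edgeR adjusted p = 0.0898). Gpx2, a glutathione peroxidase of epithelia, had 37.9 and 36.8 CPM in d6_Eff and at most 0.334 elsewhere, with no counts in d3_Eff. Its call (edgeR adjusted p = 0.0121) rests on few day 3 counts and is lost without d3_Ineff replicate 2 (adjusted p = 1.0) and with DESeq2 (adjusted p = 0.0851).

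The proximal promoters of these genes are shown because the called epithelial genes moved together and 1 short word recurs in them. The E-box CACCTG, the letters to which the Snail and Zeb repressors of epithelial genes are known to bind, was searched on both strands (CACCTG and CAGGTG) in RefSeq windows of GRCm38.p6 from 250 bases before to 50 after the start. Of the 17 epithelial genes called positive, 9 had a window and 8 of these (88.9%) held the word, against 6640 of all 32851 windows (20.2%), 4 of 18 windows of fibroblast genes called negative and 1 of 11 of mesenchymal factors called negative. Cdh1 and Esrp1 had no window. The word and the sets were chosen after results of these data were known, and a match is a description, not a site or a cause. List genes were read in 1 window each, while the background counts every window. Epithelial genes without a positive call were not searched, so whether the word goes with the call was not tested. Capitals mark the word, each window is read 5′ to 3′ on the gene's strand, and the regions are chr17:87635729-87636028 (plus strand) for Epcam, chr15:102004293-102004592 (minus) for Krt8, chr15:102027966-102028265 (plus) for Krt18 and chr9:21312284-21312583 (minus) for Ap1m2.
Epcam: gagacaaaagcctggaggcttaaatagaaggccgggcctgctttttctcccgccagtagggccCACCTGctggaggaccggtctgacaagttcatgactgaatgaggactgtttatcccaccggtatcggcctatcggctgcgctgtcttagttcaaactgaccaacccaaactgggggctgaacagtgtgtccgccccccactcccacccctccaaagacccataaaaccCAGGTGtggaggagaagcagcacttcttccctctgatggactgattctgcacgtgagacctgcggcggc
Krt8: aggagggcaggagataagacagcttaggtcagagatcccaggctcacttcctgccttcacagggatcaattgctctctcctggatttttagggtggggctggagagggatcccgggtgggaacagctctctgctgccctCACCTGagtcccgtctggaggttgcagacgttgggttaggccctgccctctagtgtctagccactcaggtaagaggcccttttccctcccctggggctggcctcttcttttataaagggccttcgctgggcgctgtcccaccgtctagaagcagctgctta
Krt18: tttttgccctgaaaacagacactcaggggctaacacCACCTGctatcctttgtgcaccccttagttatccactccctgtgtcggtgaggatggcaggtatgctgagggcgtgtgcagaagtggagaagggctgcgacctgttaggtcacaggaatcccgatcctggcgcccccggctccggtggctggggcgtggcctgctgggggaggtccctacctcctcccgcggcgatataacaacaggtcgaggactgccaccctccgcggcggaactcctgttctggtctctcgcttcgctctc
Ap1m2: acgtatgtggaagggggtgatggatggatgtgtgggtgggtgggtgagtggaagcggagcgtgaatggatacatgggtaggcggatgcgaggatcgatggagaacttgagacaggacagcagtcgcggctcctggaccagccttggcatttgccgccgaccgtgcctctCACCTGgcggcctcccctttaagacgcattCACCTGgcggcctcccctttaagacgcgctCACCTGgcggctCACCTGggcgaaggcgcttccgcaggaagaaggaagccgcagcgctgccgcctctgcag
The Ap1m2 window holds the word 4 times, that of Epcam 2 times, and those of Krt8 and Krt18 1 time each. Of the genes of these repressors, Snai1 had a mean of 7.21 CPM in d6_Ineff and 1.38 in d6_Eff, Zeb2 4.18 and 0.61, and neither was called in the difference (edgeR adjusted p = 0.0721 and 0.448). Both were chosen after their values were seen, and the other genes of these families are not given here. A link between repressors and the word was not tested.

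**Figure D4:**
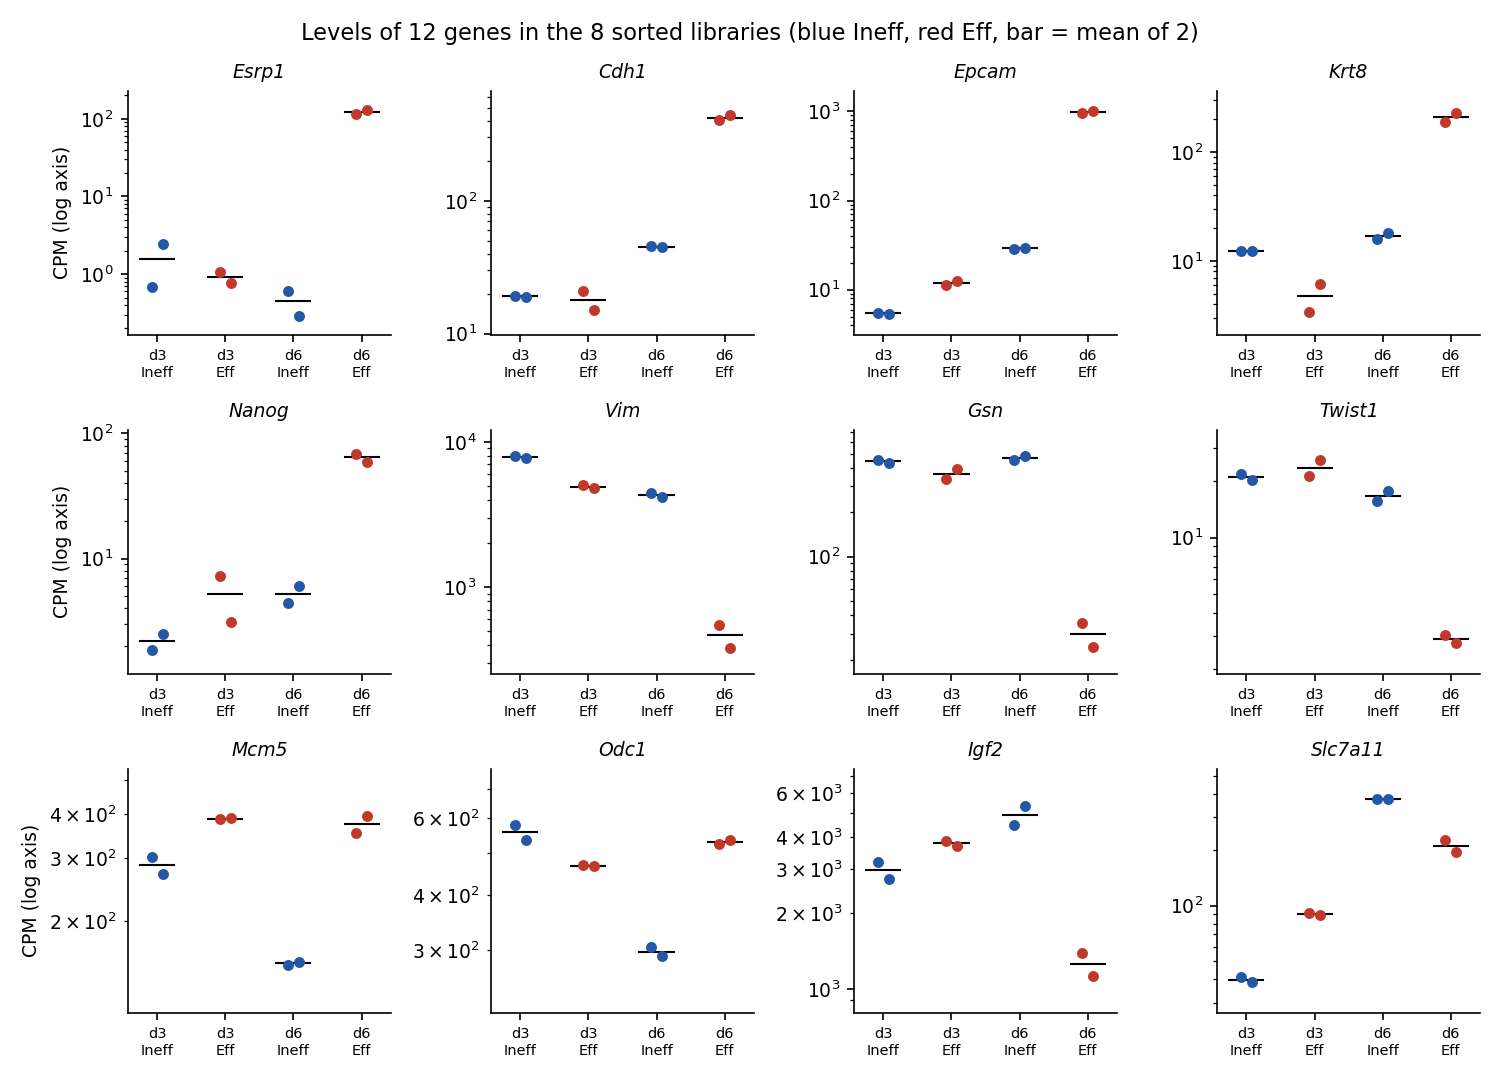
CPM on a log axis (y axis) in each of the 8 libraries for 12 genes, by group (x axis); points are libraries, blue for Ineff and red for Eff, and bars are means of 2. The first 5 panels stand high in d6_Eff, Vim, Gsn and Twist1 stand low there, and Mcm5 and Odc1 stand low in d6_Ineff.

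Of 44 pluripotency genes in the files 38 were tested, 4 were called positive and 1 negative, against 1.85% and 6.57% of all genes tested, and their median difference was 0.0465. Only 2 were positive without d3_Eff, d3_Ineff or d6_Eff replicate 2 or d6_Eff replicate 1, and none was negative without d3_Eff replicate 1 or d3_Ineff, d6_Eff or d6_Ineff replicate 2. In the day 3 gap, 7 of the 38 were called higher in Eff and 1 lower, against 1.3% and 2.52% of all genes tested. In the day 6 gap, 18 were higher and 3 lower, against 12.2% and 18.3%. Their median gap was 0.578 on day 3 and 1.03 on day 6. From day 3 to day 6, 21 of the 38 rose and 1 fell in Eff, and 14 rose in Ineff, where 24 were not called. Nanog (ENSMUSG00000012396), a core pluripotency factor, had 1.87 and 2.50 CPM in d3_Ineff, 7.26 and 3.09 in d3_Eff, 4.43 and 5.97 in d6_Ineff and 69.0 and 59.6 in d6_Eff. The d3_Eff and d6_Ineff libraries overlapped and d6_Eff stood apart, with a log2 difference of 2.36 ± 0.47 (SE; edgeR adjusted p = 0.00479).

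Nr0b1, an orphan nuclear receptor of embryonic stem cells, had a clear gap on day 3 already, 2.78 and 3.02 CPM against 21.3 and 24.7, and a wider one on day 6, 2.12 and 2.26 against 46.7 and 48.5 (log2 difference 1.45 ± 0.33, SE; edgeR adjusted p = 0.01). Utf1, a chromatin factor of pluripotent cells, was not called in the difference, since it rose in both: from 1.14 and 0.331 to 27.3 and 27.5 CPM in Ineff and from 2.82 and 4.07 to 124 and 117 in Eff. Esrrb, another orphan receptor, was higher in Ineff on day 6, with 14.1 CPM in both libraries against 2.55 and 3.71 in d6_Eff, and its difference was not called (edgeR adjusted p = 0.754).

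The 4 reprogramming factors had no called difference. Pou5f1, Sox2, Klf4 and Myc had log2 differences of -0.29 ± 0.38, -0.32 ± 0.30, -0.39 ± 0.29 and -0.27 ± 0.20 (SE), with edgeR adjusted p of 0.489 to 0.732, and none had an unadjusted p under 0.05 or a DESeq2 call. Pou5f1 had 75.0 and 35.8 CPM in d3_Ineff and Sox2 200.7 and 107.5, so replicate 2 was the low one. Without d3_Ineff replicate 1, Sox2 was called at -0.81 (edgeR adjusted p = 0.0299), and without replicate 2 its value was 0.06 and that of Pou5f1 0.14. Their counts include reads from any transgene that shares their sequence. Of the sorting genes, Nt5e, which encodes CD73, went from 2.64 and 4.30 against 42.9 and 34.3 CPM on day 3 to 22.1 and 38.7 against 51.8 and 47.0 on day 6. Ly6a, which encodes Sca1, had 666 and 906 CPM in d3_Ineff, 86.9 and 83.6 in d3_Eff, 544 and 577 in d6_Ineff and 16.5 and 8.68 in d6_Eff. The gap of Nt5e closed and that of Ly6a widened, and both can follow from the gates.

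Mesenchymal genes moved the gap downwards. Of 47 fibroblast matrix and surface genes 46 were tested, and 23 were called negative and none positive, with a median difference of -1.22. The 23 were 15 without d6_Ineff replicate 2. Many were lower in Eff already on day 3, when 19 were called lower (11 without d3_Eff replicate 2, 12 without d3_Ineff replicate 1), and 42 were on day 6. In Eff cells 27 fell and 3 rose between the days, while in Ineff cells 13 rose and 6 fell. Of 48 mesenchymal transcription factors 40 were tested, and 15 were called negative and none positive (median -1.28). In the gaps of these 40, 2 were called lower in Eff and 1 higher on day 3, and 26 lower and 1 higher on day 6. Of 28 TGF-beta and YAP target genes, all tested, 14 were called negative and none positive (median -0.752). Of these 28, 12 were called lower on day 3 (5 without d3_Eff replicate 2) and 26 on day 6. In these 3 lists no gene had a positive difference of gaps at an unadjusted p under 0.05 or by DESeq2. Over all genes tested, edgeR called 6.57% negative and 1.85% positive.

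Vim (ENSMUSG00000026728), the intermediate filament of mesenchyme, had 8026 and 7705 CPM in d3_Ineff, 5038 and 4782 in d3_Eff, 4421 and 4170 in d6_Ineff and 552 and 384 in d6_Eff. It fell in both populations and much further in Eff, with a log2 difference of -2.52 ± 0.25 (SE; edgeR adjusted p = 2.9e-05). Gsn (ENSMUSG00000026879), an actin-severing protein, lay between 336 and 483 CPM in the other 6 libraries and at 35.3 and 24.2 in d6_Eff (log2 difference -3.69 ± 0.24, SE; edgeR adjusted p = 4.84e-07). Lix1l behaved alike, with 82.0 to 104 CPM in the other 6 libraries and 8.69 and 6.77 in d6_Eff.

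Cdh2, which encodes N-cadherin of mesenchymal junctions, had 43.4 and 34.5 CPM in d3_Ineff, 44.2 and 25.8 in d3_Eff, 18.9 and 19.8 in d6_Ineff and 1.41 and 0.12 in d6_Eff. The day 3 groups overlapped, and its log2 difference was -4.38 ± 0.64 (SE; edgeR adjusted p = 0.00101). Some matrix genes rose in Ineff as they fell in Eff. Col15a1, a basement membrane collagen, went from 74.4 and 56.8 to 117 and 130 CPM in Ineff and from 42.6 and 39.3 to 13.3 and 13.6 in Eff. Fmod, a collagen-binding proteoglycan, went from 452 and 395 to 721 and 818 CPM in Ineff and from 146 and 135 to 51.6 and 25.8 in Eff. Col6a1 fell in both, from 489 and 354 to 148 and 161 and from 281 and 273 to 23.6 and 15.3.

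Among transcription factors, Twist1, a basic helix-loop-helix factor of mesenchyme, had 21.9 and 20.2 CPM in d3_Ineff, 21.3 and 25.8 in d3_Eff, 15.7 and 17.7 in d6_Ineff and 3.05 and 2.76 in d6_Eff (log2 difference -2.68 ± 0.33, SE; edgeR adjusted p = 0.000111). Prrx1, a homeobox factor of limb mesenchyme, already differed on day 3, 219 and 230 against 144 and 106 CPM, and more on day 6, 117 and 145 against 17.3 and 11.7. Ebf1 had 11.3 to 21.2 CPM in the other 6 libraries and 2.18 and 1.38 in d6_Eff. In all 3 the d6_Eff libraries lay below every other.

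Signalling genes of the same cells followed. Tgfbr2, a TGF-beta receptor, rose in Ineff from 98.2 and 84.3 to 157 and 161 CPM and fell in Eff from 70.6 and 59.9 to 30.0 and 29.8 (log2 difference -1.93 ± 0.21, SE; edgeR adjusted p = 6.87e-05). Axl, a receptor tyrosine kinase, fell in both, from 334 and 299 to 184 and 200 CPM in Ineff and from 235 and 218 to 40.4 and 37.9 in Eff. Of 20 BMP response genes tested 5 were called negative (3 without d3_Eff replicate 1, d3_Ineff replicate 1 or d6_Ineff replicate 2) and none positive. Among them Smad7, an inhibitory Smad, fell in Eff from 15.5 and 17.9 to 5.10 and 3.47 CPM and had 24.2 to 30.2 CPM in the 4 Ineff libraries. The BMP counts are to be read against 6.57% negative and 1.85% positive over all genes tested.

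Contractile genes were low in Eff on both days: Acta2, smooth muscle actin, had 2033 and 2073 CPM in d3_Ineff, 604 and 544 in d3_Eff, 851 and 817 in d6_Ineff and 69.7 and 30.4 in d6_Eff (log2 difference -2.22 ± 0.38, SE; edgeR adjusted p = 0.00221). Of 13 smooth muscle genes 5 were called negative and none positive by edgeR, while DESeq2 called 1 positive, and 1 was positive at an unadjusted p under 0.05. For comparison, edgeR called 6.57% of all genes tested negative and 1.85% positive.

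In 3 lists of growth genes the positive difference came with a fall in Ineff cells between the days. Of 33 DNA replication and G1/S genes 6 were called positive and none negative (median 0.441), with 14 lower on day 6 in Ineff and 3 in Eff. Of 30 mitosis and G2/M genes 3 were called positive and none negative, with 16 lower in Ineff and 2 in Eff. Of 32 ribosome biogenesis and Myc target genes 5 were called positive and none negative, with 19 lower in Ineff and none in Eff. These counts were smaller without 1 library: the 6 replication genes were 1 without d6_Ineff replicate 1 and 2 or 3 without any other library but d3_Ineff replicate 1, the 3 mitosis genes were 1 without d3_Ineff replicate 2, and the 5 ribosome genes were 2 without d6_Ineff replicate 1 and 3 without d3_Ineff or d6_Ineff replicate 2 or either d6_Eff library. In the day 6 gap itself 28, 28 and 27 genes of these 3 lists were higher in Eff, against 12.2% of all genes tested. In the difference, 1.85% of all genes tested were called positive and 6.57% negative. Between the days, 6.88% of all genes tested were called lower on day 6 in Ineff and 11.5% in Eff.

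Mcm5 (ENSMUSG00000005410), a subunit of the replicative helicase, had 302 and 271 CPM in d3_Ineff, 387 and 389 in d3_Eff, 150 and 153 in d6_Ineff and 354 and 394 in d6_Eff. The Eff libraries stayed within 354 to 394 CPM over both days and the Ineff libraries of day 6 lay below all others (log2 difference 0.86 ± 0.19, SE; edgeR adjusted p = 0.00924). That call is lost without d6_Eff replicate 2 (edgeR adjusted p = 0.0597) or d6_Ineff replicate 1 (0.0519). Uhrf1, which recruits maintenance DNA methylation, went from 248 and 229 to 136 and 161 CPM in Ineff and from 344 and 295 to 389 and 404 in Eff (log2 difference 0.99 ± 0.20, SE; edgeR adjusted p = 0.00565).

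Odc1, the first enzyme of polyamine synthesis, had 578 and 534 CPM in d3_Ineff and 468 and 467 in d3_Eff, a gap that was not called, and 304 and 290 in d6_Ineff against 524 and 534 in d6_Eff (log2 difference 1.08 ± 0.19, SE; edgeR adjusted p = 0.00179). Ccnb2, a mitotic cyclin, had 181 to 200 CPM in the 4 day 3 libraries, 111 and 109 in d6_Ineff and 213 and 197 in d6_Eff. Ezh2, the Polycomb methyltransferase, went from 121 and 138 to 80.1 and 78.6 CPM in Ineff and from 186 and 160 to 210 and 175 in Eff; its call is lost without any 1 of 5 libraries (edgeR adjusted p = 0.0634 to 0.0964).

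Other genes moved away from Eff because they rose in Ineff cells. Dkk3, a secreted protein of the Dickkopf family, had 3.598 and 1.79 CPM in d3_Ineff, 6.81 and 6.24 in d3_Eff, 50.1 and 64.0 in d6_Ineff and 5.01 and 0.898 in d6_Eff (log2 difference -5.49 ± 0.77, SE; edgeR adjusted p = 0.00134). Cytl1, a secreted cytokine-like protein, had at most 1.26 CPM in the other 6 libraries and 15.4 and 14.9 in d6_Ineff. Spry1, a feedback inhibitor of receptor tyrosine kinase signalling, had 16.4 to 25.1 CPM in the 4 day 3 libraries, 52.8 and 61.7 in d6_Ineff and 20.3 and 23.7 in d6_Eff. In these 3 genes d6_Ineff was the high group.

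Of 20 imprinted genes tested, which are expressed from 1 parental copy, 7 were called negative and none positive, with a median of -0.891. Over all genes tested the shares were 6.57% negative and 1.85% positive. In the day 6 gap 12 of the 20 were called lower in Eff, against 18.3% of all genes tested, and 8 were not called. Igf2 (ENSMUSG00000048583), a fetal growth factor, had 3193 and 2737 CPM in d3_Ineff, 3878 and 3700 in d3_Eff, 4462 and 5346 in d6_Ineff and 1383 and 1128 in d6_Eff (log2 difference -2.32 ± 0.23, SE; edgeR adjusted p = 3.05e-05). It rose in Ineff and fell in Eff, and the gap was called on day 6 and not on day 3. Cdkn1c, a cyclin-dependent kinase inhibitor, had 144 and 154, 31.5 and 40.9, 280 and 284, and 23.6 and 18.8 CPM in the same order of groups (log2 difference -1.69 ± 0.23, SE; edgeR adjusted p = 0.000281). Peg3, a zinc finger protein, rose in Ineff, from 13.8 and 12.7 to 36.3 and 42.6 CPM, and was at 11.1 and 13.0 and then 11.3 and 12.5 in Eff.

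Most genes whose gap closed or crossed had been higher in Eff on day 3: 34 of the 43 that closed and 33 of the 37 that crossed had a negative difference. Acsbg1 (ENSMUSG00000032281), an acyl-CoA synthetase, had 89.4 and 75.0 CPM in d3_Ineff and 268 and 267 in d3_Eff, then 221 and 254 in d6_Ineff and 68.8 and 57.2 in d6_Eff (log2 difference -3.62 ± 0.22, SE; edgeR adjusted p = 3.1e-07). The 2 populations exchanged levels. Slc7a11, the cystine transporter, rose in both, from 41.0 and 38.5 to 376.6 and 376.5 CPM in Ineff and from 91.1 and 89.0 to 226 and 195 in Eff. Trim9, a ubiquitin ligase, marked d3_Eff with 39.0 and 36.7 CPM against 3.78 to 12.0 in the other 6 libraries. Nptx1, a neuronal pentraxin, had 0.683 and 0.755 against 6.50 and 6.99 CPM on day 3 and 14.8 and 18.5 against 15.8 and 17.9 on day 6, where the groups overlapped.

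**Figure D5:**
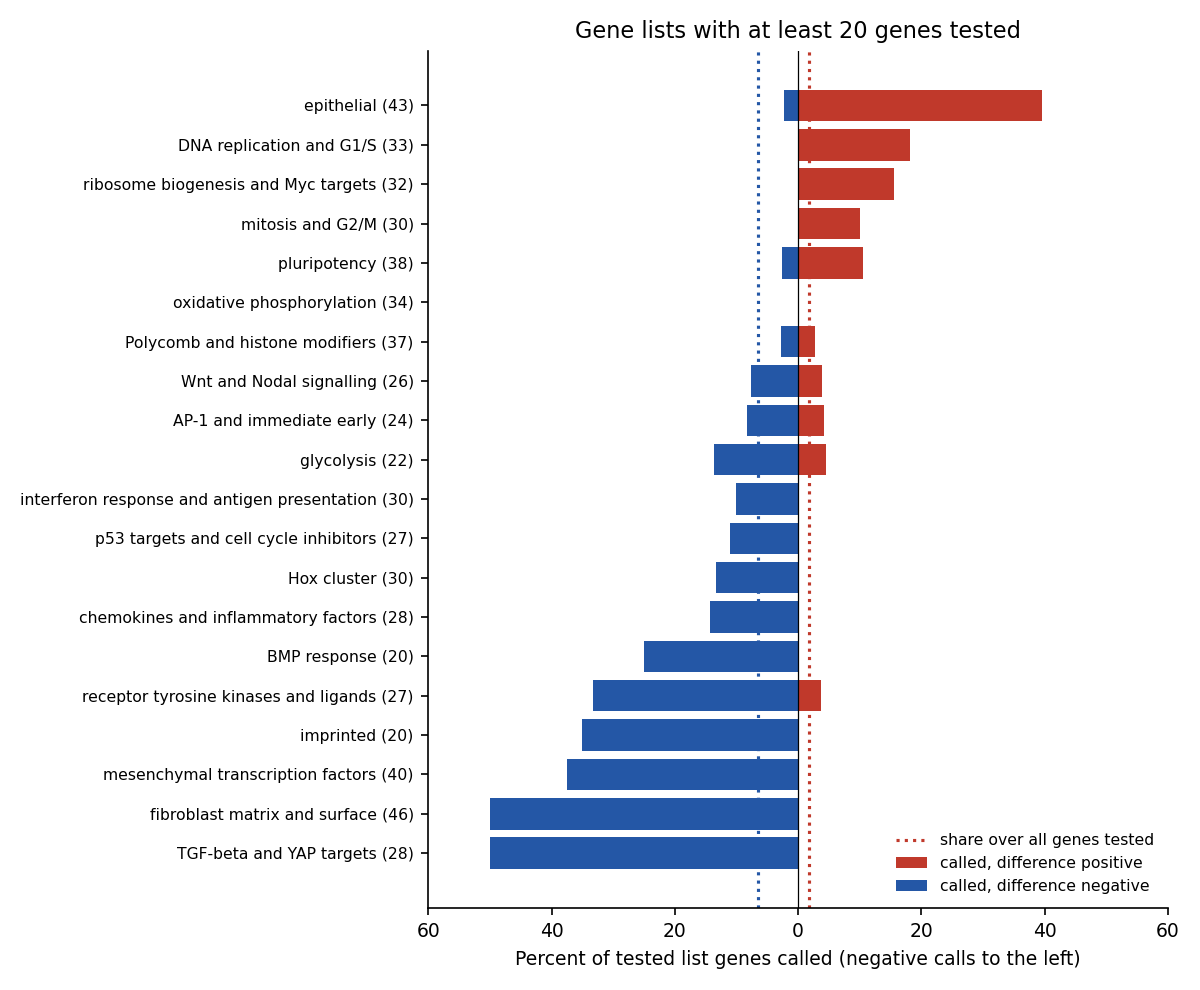
Percent of the tested genes of each list called in the difference of gaps (x axis), positive to the right in red and negative to the left in blue, for the 20 lists with at least 20 genes tested (number in parentheses). Dotted lines mark the shares over all genes tested, 1.85% and 6.57%, and the epithelial, matrix and TGF-beta lists reach furthest.

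Other lists had fewer calls, to be read against 1.85% positive and 6.57% negative over all genes tested. None of 34 oxidative phosphorylation genes was called by edgeR, while 3 were positive at an unadjusted p under 0.05, DESeq2 called 1, and edgeR called 2 without d3_Ineff replicate 1. Of 22 glycolysis genes 1 was called positive and 3 negative (none negative without d3_Eff or d6_Ineff replicate 2, and none positive in 7 of the 8 fits without 1 library), among them Aldoc, an aldolase, which went from 4.37 and 6.56 to 43.0 and 52.7 CPM in Ineff and from 2.87 and 5.04 to 10.3 and 11.5 in Eff. Its call is lost without d3_Eff replicate 2, d3_Ineff replicate 1 or d6_Ineff replicate 2 (edgeR adjusted p = 0.0752 to 0.0987). Of 30 Hox genes 4 were called negative, 1 without d6_Eff or d6_Ineff replicate 2 and 2 without d3_Eff replicate 1 or either d3_Ineff library. Of 30 interferon response genes 3 were called negative, 1 without d6_Ineff replicate 2. Ifi27, an interferon-induced gene, rose in Ineff from 7.24 and 7.93 to 32.7 and 31.1 CPM and was at 3.00 and 3.47, then 4.19 and 4.79 in Eff. Its call is lost without either d6_Ineff library (edgeR adjusted p = 0.0523 and 0.0547).

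Markers of other cell types were checked, and their part in the results was not tested. The leukocyte list summed to 329 to 386, 272 to 275, 507 to 518 and 211 to 213 CPM in d3_Ineff, d3_Eff, d6_Ineff and d6_Eff, nearly all of it Laptm5, while Ptprc had 3 counts over the 8 libraries and Cd3e and Adgre1 had 0. The endothelial list of 14 genes summed to 215 to 238, 164 to 194, 232 to 247 and 130 to 135 CPM, mostly Tek and Eng, with Pecam1 at most 1.70. Kdr, a vascular growth factor receptor, was called negative, with 18.02 and 12.3 CPM in d6_Ineff and at most 4.93 elsewhere. Laptm5 and Eng were called negative too, with log2 differences of -0.92 ± 0.19 and -1.04 ± 0.28 (SE; edgeR adjusted p = 0.00631 and 0.0285), and the call of Eng is lost without any 1 of 6 libraries (adjusted p = 0.0513 to 0.174). Skeletal muscle markers summed to at most 6.43 CPM. The keratinocyte list summed to 501 to 624, 375 to 386, 445 to 470 and 540 to 561 CPM, mostly Perp, and Ivl had 0 counts and Krt5 3.

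The MEF and iPSC libraries do not enter the difference of gaps. Genes with a positive difference were more often higher in iPSC than in MEF: 195 of 272 (71.7%) were called higher and 29 lower, against 25.3% and 28.0% of all genes tested. Of the 965 with a negative difference, 676 (70.1%) were called lower in iPSC and 118 (12.2%) higher. This fit used all 12 libraries, so it shares its estimate of the spread with the sorted groups. MEF replicate 2 had 47.15% of its reads outside genes, and without it the counts were 198 of 272 and 731 of 965.

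The d6_Eff level of a called gene was not always on the way to the iPSC level. Scaled over all 12 libraries, Esrp1 had 114 and 129 CPM in d6_Eff and 45.6 and 40.7 in iPSC, Epcam 947 and 994 against 348 and 391, and Krt8 185 and 224 against 43.0 and 26.5. Cdh1 was alike in both, 394 and 431 against 410 and 426 CPM, and Nanog was lower in d6_Eff, 67.5 and 58.4 against 636 and 557. Slc7a11 and Acsbg1 were low at both ends, with 19.3 and 29.9 and then 1.68 and 1.32 CPM for Slc7a11 in MEF and iPSC, and 1.34 and 0.279 and then 0.258 and 0.132 for Acsbg1. These levels were not tested between d6_Eff and iPSC here.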

How the data were processed

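Poly-A RNA-seq counts of 12 libraries were used, 8 of them for the main fit. Per the submitters' processing notes the tools were STAR 2.3.0, Picard 1.100 and HTSeq 0.6.0 with build mm9 (gene annotation not given in the sources used here). What the authors deposited is raw read counts, 1 file per library, with 37583 genes and 5 summary lines, which were left out of library sizes and tests. The deposited files' names call the counting not stranded, so genes that share exons with a gene on the opposite strand (35 of the 123 named, among them Esrp1, Krt8, Crb3, Pou5f1, Cdkn1c, Igf2, Trim9, Col15a1, Lix1l, Spry1 and Ezh2) cannot be told apart from it; this also holds for Grhl2, Ovol2 and Zeb2. Symbols (87.4% of identifiers) and the exon positions behind these overlaps came from GENCODE M21.

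Genes kept by filterByExpr on the 4 groups (14695) were scaled by TMM and fitted with edgeR 4.0.16 in R 4.3.3 (quasi-likelihood, robust, 1 mean per group, 4 residual degrees of freedom, common biological coefficient of variation 19.6%). Calls were made at a Benjamini-Hochberg adjusted p under 0.05. SE is the absolute log2 value over the square root of F. The fit was tested on simulated data. There the share of false calls was above the threshold, and most genes with a true difference of 1 log2 unit were not called. Calls near the threshold are to be read with that in mind. The members and the 32 gene lists were chosen with earlier results of these data known.

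Named genes followed a rule: the 12 largest called differences per direction (highest group mean of at least 5 CPM, over 3 counts in each group, day 6 libraries not overlapping), 6 per direction among called genes with a group at 3 counts or fewer, the sorting and reprogramming genes, up to 3 called genes per list and direction by adjusted p, and 4 per class of gap. Utf1, Esrrb, Snai1, Zeb2, Grhl2, Ovol2, Cldn4, Fmod and Peg3 lie outside it and were chosen after their values were seen. The alternatives were 16 planned ones and 1 added after seeing the data (all libraries but MEF replicate 2). The comparison of iPSC with MEF and the promoter search were also added then.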

Additional observations from a re-analysis of the deposited data

Results flagged for a closer look

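The difference of gaps is itself a test of whether the Eff against Ineff contrast differs between the days, so all 272 genes with a positive and all 965 with a negative called difference differ in that sense by edgeR. Of the named genes, those whose gap was called in opposite directions on the 2 days are listed singly, and the others are in the report. In log2 units the difference was 5.01 for Krt8 and 3.76 for Krt18, both keratins. It was -4.59 for Crhr2, a corticotropin-releasing hormone receptor, -4.57 for Tgm3, a transglutaminase, -4.39 for Slc6a17, a vesicular transporter, and -4.34 for She. It was -3.62 for Acsbg1, -2.02 for Slc7a11 and -1.54 for Ehf. Groups of 2 libraries are too small for a check on single outlying samples.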

How the results depend on the processing

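With all 12 libraries in the fit, 225 genes were called in the difference, 65 in the day 3 gap, 2375 in the day 6 gap, 1479 between days in Eff, 717 between days in Ineff and 40 in the gene lists. The common biological coefficient of variation was then 28.0%. Without MEF replicate 2 it was 18.9% and the difference had 1297 calls, of which 1112 were among the 1237. With no filter on low counts, 901 genes were called in the day 3 gap and 1632 in the difference. DESeq2 called 1593 genes in the difference, 525 of them positive. With reads outside genes as a covariate, 1242 were called in the difference, of which 1113 were among the 1237. Between days in Eff that fit called 1883 in place of 2824. Leaving out 1 of the 8 libraries gave 742 (without d3_Ineff replicate 2) to 1112 calls in the difference, 752 without d6_Ineff replicate 2 and 880 without d6_Eff replicate 2. The day 3 gap then had 220 to 637 calls, with 220 without d3_Eff replicate 2, 251 without d3_Ineff replicate 2 and 298 without d3_Ineff replicate 1. Between days, Eff had 1842 (without d6_Eff replicate 2) to 2737 calls and Ineff 1051 to 2540, with 1051, 1226 and 1291 without d3_Ineff replicate 2, d6_Ineff replicate 1 and d6_Ineff replicate 2. In each such fit the lone library is assumed to vary like the other groups. With the replicate block, 1073 genes were called in the difference, 1058 of them among the 1237; deviations of same-numbered libraries correlated at -0.0944 to 0.0954, so the numbers were not taken to pair the samples. In 3 genes with no call the value changed sign: Fut9 to -0.1457 (without d6_Eff replicate 1) and -0.1335 (without d6_Ineff replicate 1), Pou5f1 to 0.1439 and Sox2 to 0.06233 (both without d3_Ineff replicate 2). Over the fits without 1 library their highest or lowest values on the other side were 0.2192, -0.8906 and -0.8082, the last called (edgeR adjusted p = 0.0299). Of 117 called named genes, 43 kept the call in all 17 alternatives, and 69 lost it with all 12 libraries. The causes were not tested.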
